A study of Mus musculus with 2 samples.

Results

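Genes of the ATF4 stress response were followed cell by cell in mouse cornea and limbus, together with Fgf21, the gene of a secreted hormone of the fibroblast growth factor family. The set holds 10 of the 27998 features of the count matrices, namely Atf4, Ddit3, Chac1, Trib3, Asns, Eif4ebp1, Nupr1, Sesn2, Fgf21 and Ddit4, and each was taken by its symbol. The 10 genes were selected with measured values from these libraries in view, so their levels and ratios are given as a description.

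The libraries came from 1 wild-type and 1 beclin 1 heterozygous (Becn1 +/-) littermate, both females of 28 days on a C57BL/6 background. Becn1 encodes a subunit of the lipid kinase complex that starts autophagy, and the study asked how autophagy bears on early cells of the corneal epithelium. The tissue was the rim of cornea and limbus, digested with collagenase A for 2 hours at 37 °C and then with trypsin for 20 minutes, and RNA was counted by the 10x Genomics droplet protocol. Each genotype was 1 animal and 1 library, so genotype, animal and library preparation cannot be told apart, and every interval below is a 95% interval that covers counting error only. Pairs of values give the library labelled wild type first and the library labelled Becn1 +/- second.

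The integrated stress response works through the translation factor eIF2, whose alpha subunit is phosphorylated by kinases that sense unfolded proteins in the endoplasmic reticulum, amino acid shortage, viral RNA or heme shortage. Phosphorylation slows protein synthesis in general and lets the Atf4 message be translated. The ATF4 protein then switches on genes of amino acid supply, redox balance and translation control, and, when stress lasts, genes linked to cell death. FGF21 is best known as a hormone of liver and fat that is induced by ATF4 and by fasting signals. It acts on target cells through FGFR1 with beta-Klotho (Klb) as co-receptor. Keratocytes are the resident fibroblast-like cells of the corneal stroma and make its collagens and proteoglycans, among them decorin (Dcn) and keratocan (Kera).

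Stromal cells were taken as cells with at least 5000 CPM of Dcn (CPM: a gene's UMIs, the counted molecules, per 1000000 UMIs), and there were 557 and 1333 of them among 2462 and 4942 cells. They were split by the immediate early gene Fos, a transcription factor known to be switched on within minutes by many stimuli, tissue dissociation among them. How far the digestion set the Fos level here was not tested. At least 1000 CPM of Fos made a cell Fos-high (224 and 375 cells, 40.2% and 28.1% of stromal cells), and less made it Fos-low (333 and 958 cells). Corneal basal cells had at least 2000 CPM of Krt14 and 8000 CPM of Krt12 (857 and 1551 cells), and limbal cells had at least 500 CPM of Gpha2 and 2000 CPM of Krt14 (232 and 366 cells). Few cells met the stromal and the corneal basal rule (3 and 8) or the stromal and the limbal rule (2 and 2), and 45 and 102 met both epithelial rules. The remaining 866 and 1804 cells were in no group.

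The Dcn rule gathered cells with a stromal profile. Of 8 stromal keratocyte markers, 7 were above 20 CPM in both libraries, Kera at 3856 and 3325 CPM and Lum at 4914 and 4976 CPM. Ptgds was at 0.146 and 0.0869 CPM. Not every cell was a Kera-positive keratocyte: 141 of 557 and 337 of 1333 stromal cells had under 500 CPM of Kera. In these Kera-low cells the fibroblast genes Pi16 (1128 and 497 CPM) and Clec3b (863 and 307 CPM) were high, against 10.9 and 4.02 CPM of Pi16 and 2.98 and 1.30 CPM of Clec3b in cells with at least 2000 CPM of Kera. Of the other fibroblast markers, Tnmd was higher in Kera-low cells (323 and 257 CPM against 188 and 119 CPM) and Dpt lower (389 and 259 CPM against 1177 and 1172 CPM). The whole group is therefore called stromal cells here. The 5 immune markers summed to 139 CPM in Fos-low and 31.7 CPM in Fos-high cells of the wild-type library and to 38.0 and 38.8 CPM in the Becn1 +/- library. Ptprc, the marker of all leukocytes, was at 0 in all 4 classes, and Cd74 made up 87.1 CPM of the wild-type Fos-low sum. The part of these cells in the results was not tested.

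Depth differed between the libraries more than between the Fos classes. Stromal cells had a median of 11693 and 8165 UMIs (unique molecular identifiers), Fos-low cells 11751 and 8091 and Fos-high cells 11603.5 and 8493. Shares of cells with a UMI are therefore given after thinning each cell to 5000 UMIs, which left out no cell. Mitochondrial UMIs had medians from 1.85% to 1.98% over the 4 stromal classes. The libraries shared 15 cell barcodes. Becn1 itself stood at 30.3 CPM (26.3 to 34.7) and 33.8 CPM (30.5 to 37.4) in stromal cells. The library labelled Becn1 +/- was thus not lower, and with the altered stretch of the gene not named in the labels, these counts do not check the genotype.

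Short promoter sequences were searched for 3 known motifs, an ATF4 element among them. ATF4 binds with C/EBP proteins to the C/EBP-ATF response element (CARE), searched here as TGATGNAA on both strands within 250 bases before each start in RefSeq's promoters of GRCm38.p6. The table held 9 of the 10 genes, all but Eif4ebp1. Of these 9, 4 had a CARE match (Asns, Chac1, Fgf21 and Nupr1), against 3.45% of all 32851 promoters. The cyclic AMP element TGACGTCA had 0 matches in the 9 and was in 1.55% of all promoters. The AP-1 element TGANTCA, bound by Fos and Jun proteins, was found in 1 of the 9, that of Ddit3, and in 6.75% of all promoters. None of the 3 motifs contains another. A match of letters is a description and not a bound site. The windows are on the strand of each gene, 5′ to 3′, with the matched letters in capitals, and in 3 of the 4 CARE genes the match lies on the opposite strand.
Chac1 CARE, chr2:119351038-119351067, plus strand, match 193 bases before the start: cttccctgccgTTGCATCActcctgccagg
Asns CARE, chr6:7693214-7693243, minus strand, match 23 bases before the start: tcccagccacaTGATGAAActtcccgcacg
Nupr1 CARE, chr7:126625562-126625591, minus strand, match 110 bases before the start: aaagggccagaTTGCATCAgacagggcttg
Fgf21 CARE, chr7:45615611-45615640, minus strand, match 139 bases before the start: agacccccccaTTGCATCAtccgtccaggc
Ddit3 AP-1, chr10:127290543-127290568, plus strand, match 242 bases before the start: cgcgcgcaTGACTCActcacctcctc
Chac1, Nupr1 and Fgf21 held the same 8 letters and Asns a variant that differs at the free base. In the GENCODE M21 gene models of GRCm38, the matches of Chac1, Fgf21 and Ddit3 lie upstream of the gene, and those of Asns and Nupr1 lie in an exon of another, longer transcript of the same gene.

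The whole 250 bases before the start of Fgf21 (GRCm38.p6, chr7:45615491-45615740, minus strand) are shown because Fgf21 is the member whose level differed most between stroma and epithelium. Its only CARE match is in capitals and no AP-1 or cyclic AMP element was matched.
Fgf21 upstream: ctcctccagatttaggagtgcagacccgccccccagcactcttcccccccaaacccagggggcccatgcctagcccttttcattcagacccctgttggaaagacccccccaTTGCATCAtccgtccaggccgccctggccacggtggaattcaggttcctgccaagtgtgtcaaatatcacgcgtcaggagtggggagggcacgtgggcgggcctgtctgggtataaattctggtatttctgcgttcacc

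The first comparison set stromal cells against corneal basal cells. Fgf21, the stress-inducible chromatin protein gene Nupr1 and Ddit3, which encodes the transcription factor CHOP, were higher in stroma in both libraries. No member was at least 1.5-fold lower. The other 7 genes, Atf4 among them, differed by less than 1.5-fold in at least 1 library. Being 1.5-fold higher in both libraries was common, at 30.8% of the 4601 genes that averaged 20 CPM or more, and 24.9% were lower. The share of members that were higher is near this background, and the members were chosen with these values known, so nothing is read from it. The median log2 ratio of the 10 genes was 0.09, against 0.05 over all genes.

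Fgf21 (chr7:45613886-45615490, minus strand) had 444 and 317 CPM in stromal cells. In corneal basal cells it had 2.58 and 1.62 CPM, from 44 and 36 UMIs in 857 and 1551 cells, and in limbal cells 1.90 and 1.53 CPM, from 8 and 7 UMIs. Stromal levels exceeded every epithelial level in both libraries, by 170-fold and 192-fold over corneal basal cells (log2 ratios of 7.41 and 7.59). Of the 44 corneal basal UMIs in the wild-type library, 25 lay in 1 cell. When cells that met 2 rules were left out, the log2 ratios were 8.54 and 8.46, a move of over 1.5-fold. Decorin RNA in corneal basal cells stood at 0.443% and 0.564% of its stromal level, and that share of the stromal Fgf21 level would be 1.97 and 1.78 CPM. In limbal cells the same reckoning gives 3.64 and 2.45 CPM. All epithelial Fgf21 levels but that of the wild-type corneal basal cells lie at or below this background, and none is read as expression.

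Nupr1 (chr7:126623249-126630861, minus strand) had 6076 and 8255 CPM in stromal cells, with a UMI in 99.5% and 99.9% of thinned cells. Corneal basal cells had 121 and 149 CPM and limbal cells 192 and 260 CPM. The stromal level was 50.1-fold and 55.4-fold above corneal basal cells. At decorin's share, RNA from the stroma would give 26.9 and 46.5 CPM in corneal basal cells, below what was read there.

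Ddit3 (chr10:127290774-127296288, plus strand) had 91.6 CPM (84.6 to 99.1) and 93.6 CPM (88.1 to 99.4) in stromal cells. It had 23.7 and 24.7 CPM in corneal basal cells and 27.7 and 38.1 CPM in limbal cells. The stromal level was 3.86-fold and 3.8-fold above corneal basal cells and 3.29-fold and 2.45-fold above limbal cells. Ddit3 overlaps Mars and Gm4189 on the opposite strand and, on its own strand, another gene model of the same name that is not in the matrix, so its counts are uncertain to that extent.

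Atf4 (chr15:80255184-80257541, plus strand) had 696 CPM (677 to 716) and 652 CPM (637 to 667) in stromal cells. It had 479 and 485 CPM in corneal basal cells and 504 and 510 CPM in limbal cells. Stromal levels lay above epithelial levels beyond counting error in both libraries, by 1.45-fold and 1.35-fold over corneal basal cells. The level of the Atf4 message does not give its translation, which these data do not measure.

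The other 6 members did not reach 1.5-fold in both libraries. Chac1 (chr2:119351229-119354381, plus strand), which encodes a glutathione-degrading enzyme, had 114 and 141 CPM in stromal, 158 and 164 CPM in corneal basal and 116 and 142 CPM in limbal cells. Sesn2 (chr4:132492032-132510501, minus strand), a leucine sensor that restrains mTORC1, was lower in stroma at 51.8 and 58.7 CPM, against 83.9 and 79.4 CPM in corneal basal and 86.1 and 75.5 CPM in limbal cells. Its log2 ratios to corneal basal cells were -0.69 and -0.44, the second short of 1.5-fold. Sesn2 overlaps Gm12981 on the same strand, which is in the matrix, so reads of the pair may be shared between them. Eif4ebp1 (chr8:27260329-27276674, plus strand), the 4E-BP1 repressor of cap-dependent translation, had 320 and 439 CPM in stromal, 369 and 418 CPM in corneal basal and 289 and 355 CPM in limbal cells. Stromal Chac1 lay below corneal basal and level with limbal cells, stromal Sesn2 lay below all epithelial values, and stromal Eif4ebp1 spanned the corneal basal values and lay above the limbal value of its own library.

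Ddit4 (chr10:59949669-59951834, minus strand), the mTORC1 inhibitor REDD1, had 181 and 180 CPM in stromal, 257 and 222 CPM in corneal basal and 203 and 212 CPM in limbal cells. Asns (chr6:7675169-7693254, minus strand), asparagine synthetase, had 52.4 and 61.3 CPM in stromal, 49.5 and 46.7 CPM in corneal basal and 47.2 and 45.5 CPM in limbal cells. Trib3 (chr2:152337422-152344032, minus strand), a pseudokinase induced by ATF4 and CHOP, had 30.3 and 40.0 CPM in stromal, 40.4 and 44.4 CPM in corneal basal and 45 and 58.8 CPM in limbal cells. Ddit4 and Trib3 were lower and Asns was higher in stroma than in either epithelial group of the same library, all by less than 1.5-fold.

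Against limbal cells the same 3 genes were at least 1.5-fold higher in stroma and none was lower. The background was 29.8% of 4640 genes higher and 23.7% lower, and the median log2 ratio was 0.26 for the members and 0.05 over all genes. Trib3 lay just short of the limit for a lower call, with log2 ratios of -0.57 and -0.56.

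**Figure D1:**
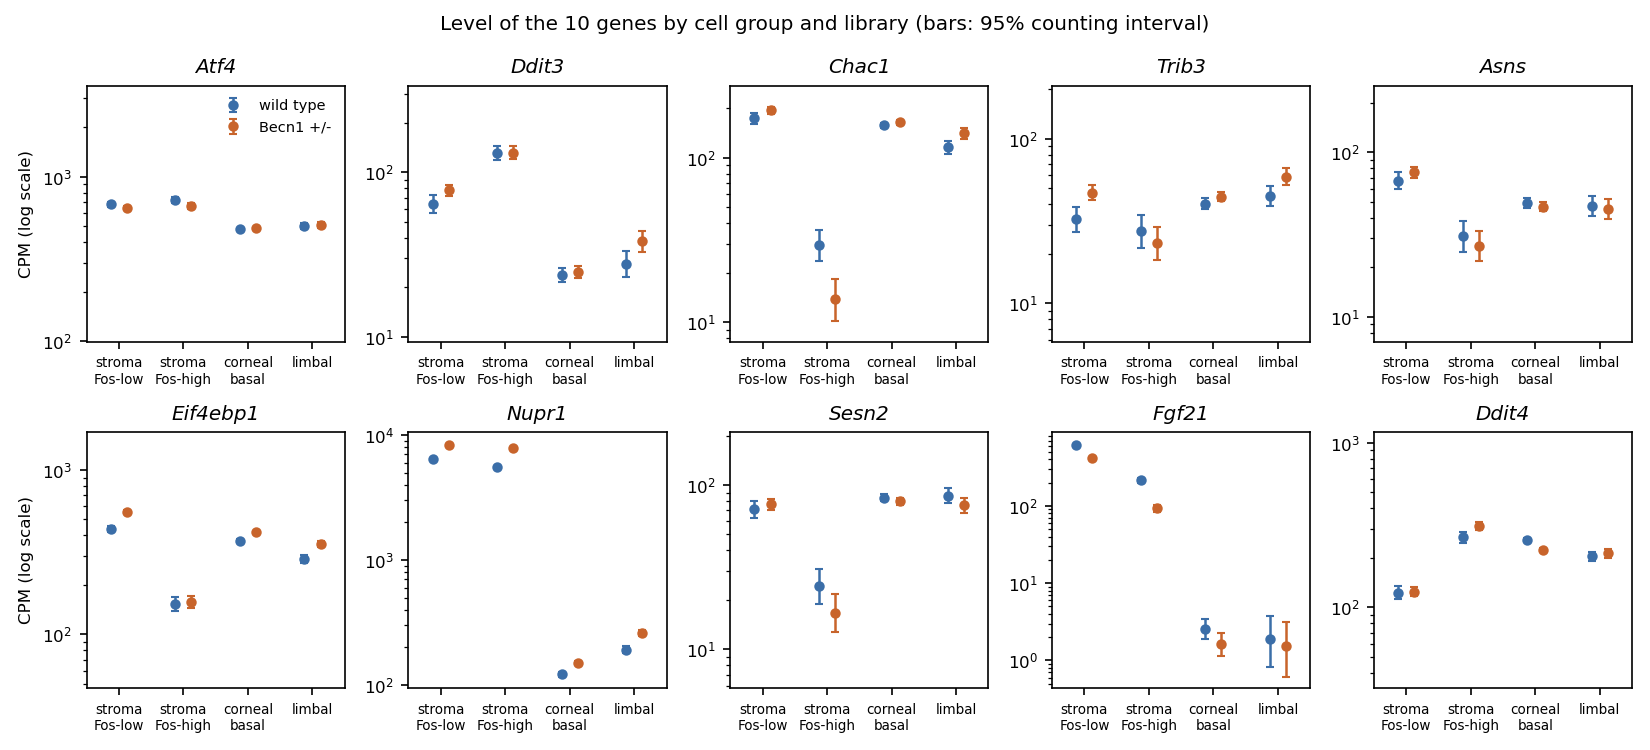
CPM of each of the 10 genes (log axis) in Fos-low stromal, Fos-high stromal, corneal basal and limbal cells of the wild-type (blue) and Becn1 +/- (orange) libraries, with exact Poisson 95% intervals as bars. Fgf21 and Nupr1 separate stroma from epithelium, and Chac1, Sesn2, Asns and Eif4ebp1 are lowest in Fos-high stromal cells.

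The second comparison set Fos-low against Fos-high stromal cells, and here the 10 genes parted. In Fos-low cells 5 genes were at least 1.5-fold higher in both libraries, Chac1, Sesn2, Fgf21, Eif4ebp1 and Asns. Ddit3 and Ddit4 were at least 1.5-fold lower. Atf4 and Nupr1 were nearly level, and Trib3 passed the limit in the Becn1 +/- library alone. Of 4671 genes, 4.11% were higher and 10.1% lower in Fos-low cells by the same rule. The median log2 ratio of the members was 0.96 and that of all genes -0.09. Scaling by the median ratio of genes raised all these log2 ratios by 0.16 in both libraries and made the background 6.21% higher and 6.47% lower, with 5 members still higher and 2 lower. Since the genes were selected with this contrast in view, nothing is read from the count itself.

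Chac1 had 174 CPM (161 to 187) and 195 CPM (185 to 205) in Fos-low cells. In Fos-high cells it had 29.5 CPM (23.5 to 36.6) and 13.8 CPM (10.2 to 18.4). The Fos-low level was 5.85-fold and 14.0-fold higher, with log2 ratios of 2.55 (2.23 to 2.90) and 3.8 (3.40 to 4.27). The size moved with the Fos limit, to 3.32 and 4.47 at 2000 CPM and to 2.88 in the Becn1 +/- library at 500 CPM, and was 2.97 there with all deposited barcodes. A Chac1 UMI was found in 44.1% and 48.7% of thinned Fos-low cells and in 8.93% and 5.07% of thinned Fos-high cells. Fos-low stromal cells were near the corneal basal level of 158 and 164 CPM, and Fos-high cells were below every other group. Keratin 12 RNA in Fos-high cells was at 4.91% and 6.88% of its corneal basal level, and Chac1 at that share of its corneal basal level would be 7.73 and 11.3 CPM, against 29.5 and 13.8 CPM read. The part of such RNA in these levels was not tested.

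Sesn2 had 71.2 and 76.3 CPM in Fos-low and 24.2 and 16.7 CPM in Fos-high cells, with log2 ratios of 1.55 (1.17 to 1.96) and 2.18 (1.80 to 2.61). Eif4ebp1 had 437 and 557 CPM in Fos-low and 153 and 157 CPM in Fos-high cells, with log2 ratios of 1.52 (1.36 to 1.67) and 1.82 (1.70 to 1.96). Asns had 67.4 and 75.7 CPM in Fos-low and 30.9 and 27.0 CPM in Fos-high cells, with log2 ratios of 1.12 (0.77 to 1.49) and 1.48 (1.17 to 1.82). All 3 genes were higher in Fos-low cells in both libraries, with no overlap of intervals.

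Fgf21 had 604 CPM (580 to 629) and 411 CPM (397 to 425) in Fos-low cells and 214 CPM (198 to 232) and 92.5 CPM (82.6 to 103) in Fos-high cells. The log2 ratios were 1.49 (1.36 to 1.63) and 2.15 (1.98 to 2.32). Both Fos classes were above the epithelial levels in both libraries.

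Ddit3 and Ddit4 ran the other way. Ddit3 had 63.9 and 77.6 CPM in Fos-low cells and 131 and 132 CPM in Fos-high cells, with log2 ratios of -1.04 (-1.27 to -0.80) and -0.77 (-0.94 to -0.59). Ddit4 had 122 and 124 CPM in Fos-low cells and 265 and 311 CPM in Fos-high cells, with log2 ratios of -1.12 (-1.28 to -0.95) and -1.33 (-1.45 to -1.20). Both genes were higher in Fos-high cells of both libraries.

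Atf4 had 680 and 648 CPM in Fos-low cells and 721 and 662 CPM in Fos-high cells, with log2 ratios of -0.08 (-0.17 to -0.000907) and -0.03 (-0.10 to 0.04). Scaling by the median ratio turned their sign, to 0.07 and 0.13. Nupr1 had 6438 and 8392 CPM in Fos-low cells and 5559 and 7929 CPM in Fos-high cells. Trib3 had 32.3 CPM (27.0 to 38.4) and 47.1 CPM (42.5 to 52.0) in Fos-low cells and 27.4 CPM (21.6 to 34.2) and 23.2 CPM (18.4 to 28.9) in Fos-high cells. The Trib3 intervals overlapped between the Fos classes in the wild-type library and not in the other.

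**Figure D2:**
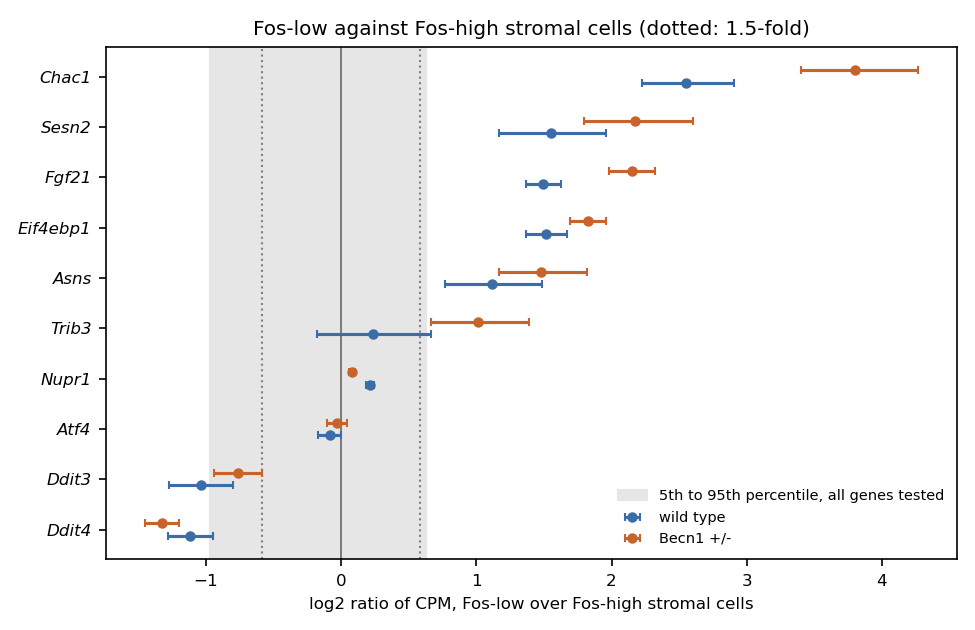
Log2 ratio of CPM, Fos-low over Fos-high stromal cells, for each gene in the wild-type (blue) and Becn1 +/- (orange) libraries with exact conditional 95% intervals. The grey band is the 5th to 95th percentile of all 4671 genes and dotted lines mark 1.5-fold. Chac1, Sesn2, Fgf21, Eif4ebp1 and Asns lie right of the band in both libraries.

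Chac1, Eif4ebp1 and Asns fell at each step of the Fos level in both libraries. Asns went from 81.1 and 89.0 CPM without Fos to 27.6 and 22.9 CPM at 5000 CPM and over. Chac1 had 199 and 244 CPM in stromal cells with no Fos UMI, 131 and 102 CPM in cells with 200 to 1000 CPM of Fos, 46.8 and 23.0 CPM from 1000 to 5000 CPM, and 14.1 and 8.10 CPM at 5000 CPM and over. Eif4ebp1 went from 487 and 658 CPM without Fos to 130 and 133 CPM at 5000 CPM and over, and Fgf21 from 609 and 493 CPM to 138 and 64.8 CPM. Ddit4 lay between 104 and 158 CPM below 5000 CPM of Fos and at 392 and 407 CPM above it. In the Becn1 +/- library it was already higher from 1000 to 5000 CPM (158 CPM, 137 to 181) than from 200 to 1000 CPM (104 CPM, 90.4 to 119). Ddit3 had 55.4 and 79.6 CPM without Fos and 62.6 and 75.6 CPM from 200 to 1000 CPM. It had 108 and 106 CPM from 1000 to 5000 CPM and 152 and 148 CPM at 5000 CPM and over. Each bin held at least 105 cells.

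**Figure D3:**
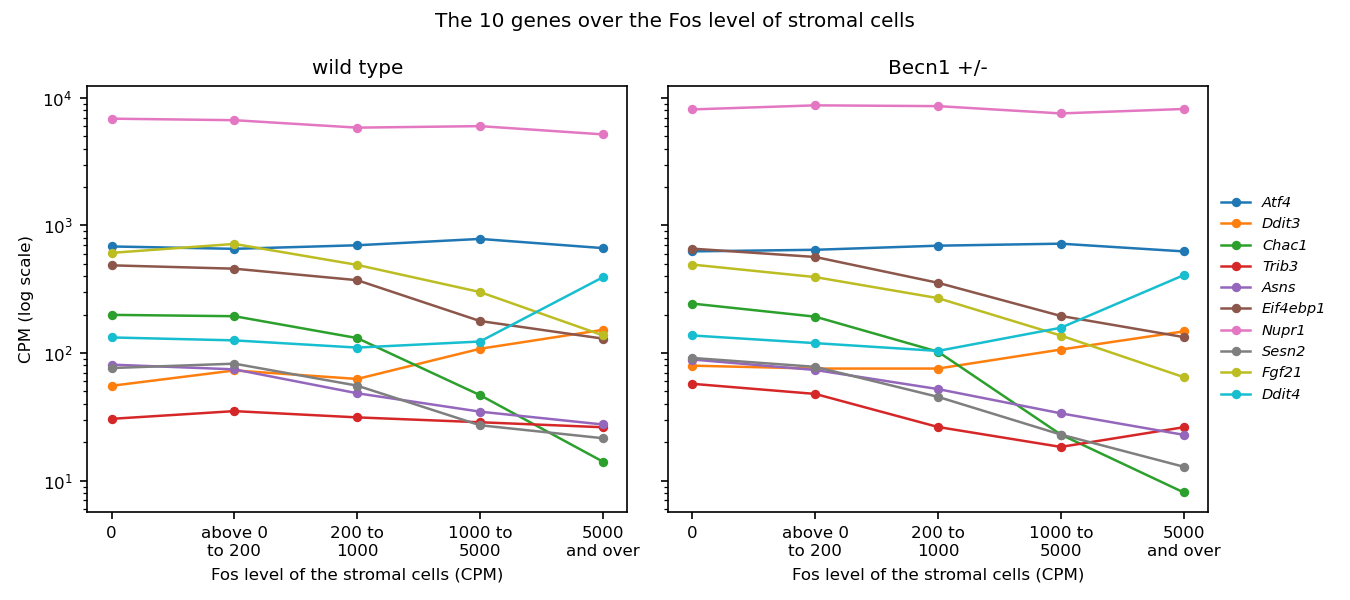
CPM of the 10 genes (log axis) in stromal cells binned by their Fos level, wild type on the left and Becn1 +/- on the right. Chac1 falls most steeply, from 199 and 244 CPM in cells without Fos to 14.1 and 8.10 CPM in cells of 5000 CPM and over, and Ddit4 is highest in the top bin.

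Few cells lay just inside and outside the limits, and their values are a description. In cells with 800 to 1000 CPM of Fos (17 and 25 cells) Chac1 had 82.4 and 75.1 CPM, and with 1000 to 1200 CPM (20 and 16 cells) it had 93.3 and 27.3 CPM. Fgf21 had 208 and 221 CPM just below the Fos limit and 509 and 150 CPM just above it. Near the decorin limit there were 2 and 8 cells with 5000 to 6000 CPM and 6 and 8 with 4000 to 5000 CPM, in which Nupr1 had 1987 and 2019 CPM inside and 2191 and 1456 CPM outside.

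The Fos classes also differed in Kera. Kera had 4462 and 3752 CPM in Fos-low cells and 2990 and 2307 CPM in Fos-high cells, and Kera-low cells made up 66 of 333 and 201 of 958 Fos-low cells but 75 of 224 and 136 of 375 Fos-high cells. The members were therefore also read in Kera classes, which were set after the values had been seen. Fgf21 had 6.29 and 17.7 CPM in cells with under 500 CPM of Kera, 34.9 and 94.0 CPM from 500 to 2000 CPM, and 598 and 451 CPM at 2000 CPM and over. Of 3031 and 3641 stromal Fgf21 UMIs, 3009 and 3479 lay in the Kera-high cells, where Pi16 and Clec3b were near 0. Nupr1 was high in all 3 classes, with 3319 and 4438 CPM in Kera-low and 6956 and 9541 CPM in Kera-high cells. Atf4 had 618 and 620 CPM in Kera-low and 720 and 656 CPM in Kera-high cells.

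Within Kera-high cells the split by Fos was still there. Fgf21 had 753 and 538 CPM in Fos-low and 324 and 162 CPM in Fos-high cells, with log2 ratios of 1.21 (1.08 to 1.35) and 1.73 (1.56 to 1.91). Chac1 had 208 and 224 CPM in Fos-low and 41.3 and 13.5 CPM in Fos-high cells, with log2 ratios of 2.32 (1.99 to 2.70) and 4.03 (3.48 to 4.71). Ddit4 was lower in Fos-low cells there too, at -1.15 (-1.33 to -0.96) and -1.39 (-1.54 to -1.23). Within Kera-low cells Chac1 had 28.6 and 110 CPM in Fos-low and 10.5 and 8.74 CPM in Fos-high cells. The Kera-low Fos-low cells were the class in which the libraries lay furthest apart in Chac1 among Fos-low cells.

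**Figure D4:**
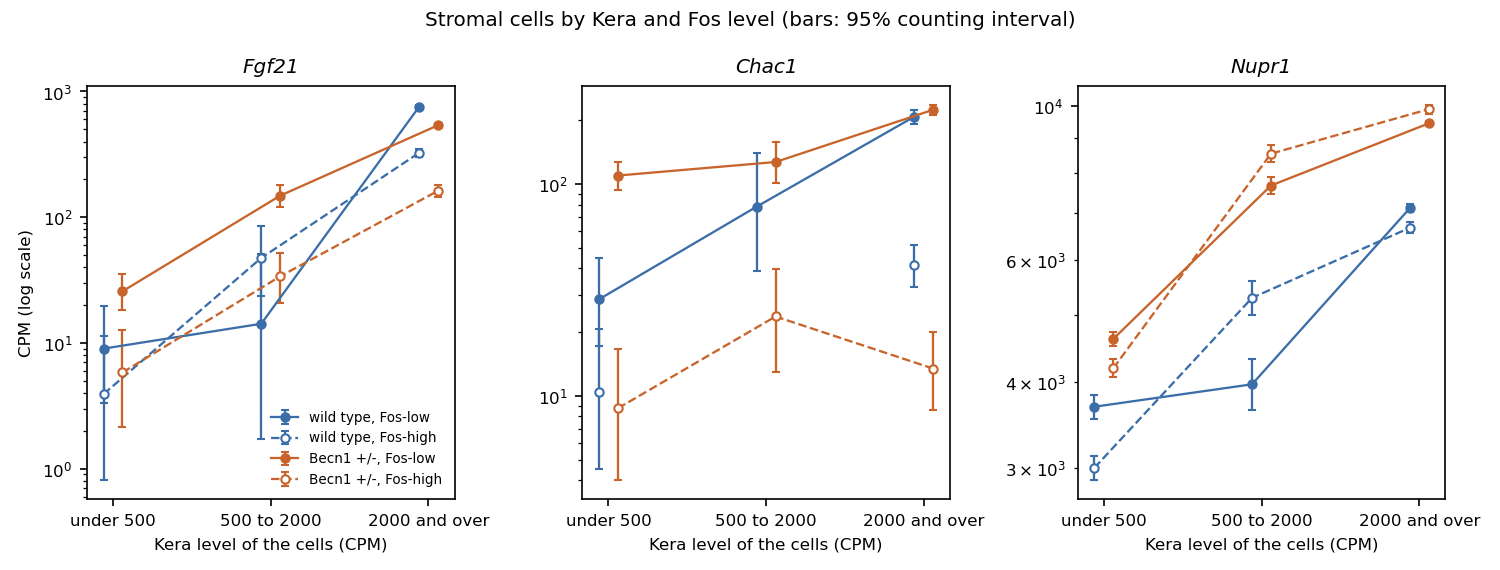
CPM (log axis) of Fgf21, Chac1 and Nupr1 in stromal cells by Kera level (under 500, 500 to 2000, 2000 CPM and over), with filled points for Fos-low and open points for Fos-high cells of the wild-type (blue) and Becn1 +/- (orange) libraries and exact Poisson 95% intervals. Fgf21 is highest in Kera-high cells, and no point is drawn for Chac1 in the 17 wild-type Fos-high cells of the middle class, which held no Chac1 UMI.

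Fgf21 was very unevenly spread over cells. After thinning, 45% and 40% of Fos-low cells had a Fgf21 UMI, against 0.583% and 0.322% of corneal basal cells, which had median depths of 17719 and 12063 UMIs. In full depth, 145 of 333 and 507 of 958 Fos-low cells had no Fgf21 UMI. The 43 Fos-low cells of the wild-type library with 20 or more UMIs, 12.9% of cells, held 70.7% of the UMIs. In the Becn1 +/- library 44 cells, 4.59%, held 42.3%. Single cells reached 84 and 76 UMIs. Atf4, by contrast, had a UMI in 95.2% and 94.8% of thinned stromal cells, with at most 27 UMIs in a cell of either library.

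Co-detection showed which genes were met in the same cells. For each of the 45 pairs of genes, the thinned stromal cells with both were counted and divided by the number that independent detection would give. Only 21 pairs could reach 1.5 in both libraries, since the ratio is capped by how often the more widely detected gene is found. Pairs with Atf4 or Nupr1 were capped near 1, and those of Eif4ebp1 with the other members at 1.57 and 1.34. Chac1 with Eif4ebp1 stood at 1.41 and 1.22 under that cap. Of these, 1 pair reached 1.5 in both libraries, Chac1 with Asns, at 56 cells against 33.6 (1.67) and 174 against 115 (1.52). Chac1 with Sesn2 came close (1.58 and 1.495, the latter just under the limit), as did Chac1 with Fgf21 (1.59 and 1.41), Trib3 with Asns (1.54 and 1.45) and Asns with Fgf21 (1.57 and 1.35). Ddit3 and Chac1 were found together less often than that, in 41 cells against 52.2 (0.79) and 151 against 166 (0.91).

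When expected numbers were computed within each Fos class and added up, no pair reached 1.5. Chac1 with Asns was then 1.44 and 1.30, Chac1 with Fgf21 1.43 and 1.23, and Ddit3 with Chac1 0.92 and 1.01. Of the 8 members other than Atf4 and Nupr1, at least 4 were found in 40.8% and 43.3% of thinned Fos-low cells. The share was 16.1% and 12.8% in Fos-high, 30.9% and 27.1% in corneal basal and 28.9% and 29.5% in limbal cells. Of the 8 counted genes, 5 were those already higher in Fos-low cells and Fgf21 was at background in epithelium, so these shares are a description of the chosen genes.

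**Figure D5:**
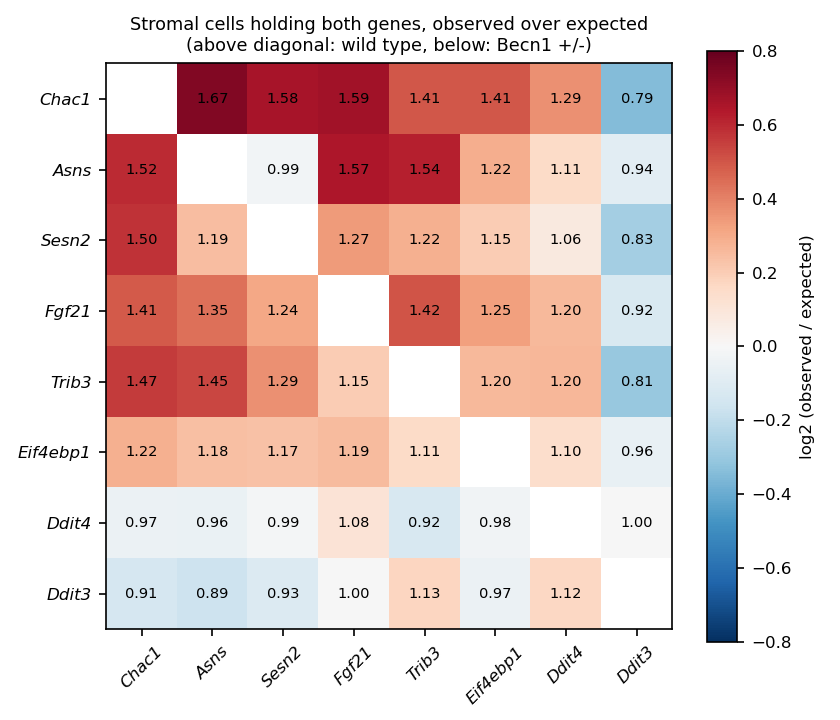
Number of thinned stromal cells with both genes over the number expected from independent detection, for 8 members, wild type above and Becn1 +/- below the diagonal, coloured on a log2 scale. Chac1, Asns, Sesn2, Fgf21 and Trib3 lie mostly above 1 with each other. Ddit3 is below 1 in both libraries with Chac1, Asns, Sesn2, Eif4ebp1 (0.96 and 0.97) and Fgf21 (0.92 and 0.996). With expected numbers computed within Fos classes, not drawn here, none of these Ddit3 pairs is below 1 in both libraries.

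Stromal cells were also grouped by their Chac1 UMIs. Over these groups Fos went from 3882 and 3407 CPM without Chac1 to 228 and 81.5 CPM at 4 or more UMIs, and Kera from 3251 and 2752 CPM to 5455 and 4558 CPM. The part of Fos and Kera in the values that follow was not tested. Fgf21 had 229 and 206 CPM in cells with no Chac1 UMI after thinning (390 and 847 cells), 874 and 537 CPM with 1 UMI (84 and 232 cells), 874 and 472 CPM with 2 or 3 (64 and 194 cells) and 1338 and 602 CPM with 4 or more (19 and 60 cells). Eif4ebp1 had 228 and 308 CPM without Chac1 and 631 and 821 CPM with 4 or more UMIs. Asns went from 34.5 and 42.4 CPM to 125 and 120 CPM. Atf4 did not follow, with 716 and 669 CPM without Chac1 and 613 and 650 CPM at 4 or more.

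The genes nearest in pattern were ranked by the Pearson correlation across thinned stromal cells, taking the lower of the 2 libraries, among 4412 genes. All points come from the same 2 libraries, so these values are a description. Chac1 was nearest to Eif4ebp1 (0.43 and 0.41), followed by the matrix protein gene Thbs1 (0.40 and 0.36), Camk2d, Col1a2 and Emp1. Asns and Sesn2 each had Chac1 first (0.26 and 0.22 for Asns, 0.17 and 0.21 for Sesn2). Trib3 had Eif4ebp1 first (0.15 and 0.16).

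Fgf21 was nearest to Kera (0.44 and 0.37), followed by the protease inhibitor gene A2m (0.45 and 0.33), the collagen VI genes Col6a2 and Col6a1, and Plod1, a collagen lysine hydroxylase. Nupr1 shared most of these, with A2m (0.56 and 0.51), Col6a2, Col6a1, Kera and Col1a2. Within Fos-low cells alone the correlation of Fgf21 with Kera was 0.42 and 0.35.

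Ddit4 was nearest to Zfp36 (0.25 and 0.29), followed by Ier2, Txnip, Egr1 and Hspa1a. Within Fos-low cells its correlation with Zfp36 was -0.03 and -0.01. There it was 0.33 and 0.13 with Eif4ebp1, 0.28 and 0.12 with Chac1 and 0.24 and 0.14 with Fgf21. With Sesn2 it was 0.13 and 0.03, with Asns 0.10 and -0.00117 and with Trib3 0.10 and -0.03. With Nupr1 it was 0.05 and -0.03, with Ddit3 -0.01 and 0.04 and with Atf4 -0.04 and -0.01. Ddit3 was nearest to Klf2 (0.18 and 0.17), Egr1, Fos, Junb and Ccnl1. Within Fos-low cells the correlations of Ddit3 with all of these were lower, at 0.09 and 0.06 for Klf2 and 0.02 and 0.006 for Fos. The class was cut by Fos, which narrows the range of Fos and of the early genes that go with it. Zfp36, for example, had 29.1 and 23.8 CPM in Fos-low against 764 and 822 CPM in Fos-high cells. Nothing is therefore read from the lower correlations of Ddit3 and Ddit4 with these genes there. Atf4 had no gene above 0.13 in both libraries, with H3f3b first (0.15 and 0.13).

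Other targets of ATF4 were taken from a list of 42 genes. Of 33 measured at a mean of at least 20 CPM, 11 were at least 1.5-fold higher in Fos-low cells of both libraries and 2 were lower, beside 4.11% and 10.1% of all genes, with a median log2 ratio of 0.44 beside -0.09. The list was chosen with earlier results known, so this is a description. Among the higher ones were Slc7a11, the cystine transporter (60.7 and 70.8 CPM against 11 and 8.23 CPM), and Psph, the last enzyme of serine synthesis (96.3 and 126 CPM against 29.2 and 31.1 CPM). Mthfd2, an enzyme of mitochondrial folate metabolism, had 127 and 135 CPM against 53.3 and 38.8 CPM, and the amino acid transporter Slc7a5 had 88.3 and 85.0 CPM against 34.9 and 27.0 CPM. The lower ones were Ppp1r15a, the stress-induced subunit of the eIF2alpha phosphatase (143 and 96.3 CPM against 682 and 623 CPM), and Atf3, itself an immediate early gene (135 and 131 CPM against 580 and 545 CPM).

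Against corneal basal cells, 8 of 32 measured targets were higher in stroma and 5 lower, and against limbal cells 8 of 33 were higher and 6 lower. These counts lie near or below the shares of all genes, 30.8% and 24.9% against corneal basal and 29.8% and 23.7% against limbal cells. Slc7a11 (40.3 and 52.3 CPM against 3.75 and 5.19 CPM), the alanine transaminase gene Gpt2 (58.7 and 60.2 CPM against 7.67 and 6.18 CPM) and Atf5 were among the higher ones. Cth, which makes cysteine from cystathionine, was lower (8.34 and 11 CPM against 131 and 102 CPM).

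Of the list of eIF2alpha kinases and phosphatase, which also holds genes of eIF2 subunits, 6 genes were measured. In Fos-low cells the subunit gene Eif2s2 was higher and Ppp1r15a lower, beside 4.11% and 10.1% of all genes. The kinase messages were low throughout. In stromal cells Eif2ak3 (PERK) had 13.6 and 15.1 CPM, Eif2ak4 (GCN2) 6.15 and 9.04 CPM, Eif2ak2 (PKR) 13.2 and 15.8 CPM and Eif2ak1 (HRI) 9.66 and 8.43 CPM, all under the 20 CPM needed for a comparison. No phosphorylation can be read from RNA.

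The chaperones of the endoplasmic reticulum, which are driven by ATF6 and XBP1 in the parallel branches of the unfolded protein response, did not part by Fos. None of 17 measured genes was 1.5-fold higher or lower in Fos-low cells of both libraries, beside 4.11% and 10.1% of all genes. The median log2 ratio was 0.16. Against corneal basal cells 13 of 16 were higher in stroma and 0 lower, with a median log2 ratio of 1.12, and against limbal cells 13 of 14 were higher. Of all genes, 30.8% were higher and 24.9% lower against corneal basal cells and 29.8% and 23.7% against limbal cells. Examples are Manf (418 and 428 CPM against 163 and 158 CPM) and Dnajb11 (104 and 93.8 CPM against 37.3 and 38.4 CPM).

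The genes around FGF21 action differed sharply. Fgfr1 had 314 and 308 CPM in stromal cells and 2.46 and 2.16 CPM in corneal basal cells. The co-receptor Klb had 0 UMIs in 557 and 1333 stromal cells. Taking 3 cells as the most that a count of 0 allows, the share of cells with a UMI is up to 0.539% and 0.225%. This is an approximate limit and not the exact binomial interval used for other shares. Over all 7404 cells of both libraries and 123217229 UMIs, Klb had 1 UMI and Kl, the gene of alpha-Klotho, had 0. Klb was not detectable at this depth in the stromal cells that held Fgf21. Of the 6 measured genes of this list, Fgfr1 was higher in Fos-low cells, beside 4.11% of all genes. The feedback genes Dusp6 (7.46 and 6.67 CPM against 88.9 and 97.5 CPM) and Spry4 were lower, beside 10.1% of all genes.

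The remaining lists gave the following counts of genes at least 1.5-fold higher and lower in Fos-low cells, beside 4.11% and 10.1% of all genes. Of 21 measured immediate early genes, 2 were higher (Fosl1 and Jund) and 18 lower, with a median of -2.08. Since the classes were cut by Fos, this describes the cut. Of 8 hypoxia-induced genes, 2 were higher (Vegfa and Egln3) and 0 lower. Of 7 p53 targets, 0 were higher and 3 lower (Btg2, Plk2 and Mdm2). Of 7 glucocorticoid-induced genes, 1 was higher (Fkbp5) and 2 lower (Per1 and Sgk1), and 6 of 6 measured in the other contrast were higher in stroma than in corneal basal cells, where 30.8% of all genes were. Of 8 genes of mTORC1 and translation control, 1 was higher (Eif4e) and 1 lower (Flcn). Between the libraries 1 listed gene passed 1.5-fold in stromal cells, Fgfbp1, beside 0.849% of all genes higher and 1.07% lower. It is a gene of epithelial cells here (286 to 308 CPM in corneal basal cells), at 17.7 and 27.2 CPM in stroma.

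The third comparison set the library labelled Becn1 +/- against the library labelled wild type within stromal cells. No member reached 1.5-fold in either direction. The background was 0.849% of 4591 genes higher and 1.07% lower, and the median log2 ratio was 0.20 for the members and -0.01 over all genes. There is no replicate behind any of these values, and the Becn1 counts did not separate the labels.

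Fgf21 was lower in the library labelled Becn1 +/-, with a log2 ratio of -0.49 (-0.56 to -0.42), or 1.40-fold. It was -0.56 (-0.63 to -0.48) in Fos-low and -1.21 (-1.41 to -1.01) in Fos-high cells. That library held a larger share of Fos-low cells, and with the Fos classes weighted equally the ratio was -0.70, or 1.63-fold lower. Among Kera-high Fos-low cells the levels were 753 and 538 CPM, and in both lower Kera classes the order was the other way. It was 6.29 and 17.7 CPM in Kera-low cells, on 9 and 45 UMIs, and 34.9 and 94.0 CPM from 500 to 2000 CPM of Kera, on 13 and 117 UMIs. With all deposited barcodes the stromal log2 ratio was past 1.5-fold, at -0.62.

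Eif4ebp1 (0.46, 0.38 to 0.53), Nupr1 (0.44, 0.43 to 0.46) and Trib3 (0.40, 0.16 to 0.64) were the members with the highest ratios. Nupr1 was higher in all 4 groups, by 0.38 in Fos-low, 0.51 in Fos-high, 0.30 in corneal basal and 0.44 in limbal cells. Eif4ebp1 was higher by 0.35 in Fos-low cells and by 0.04 (-0.14 to 0.23) in Fos-high cells. With the Fos classes weighted equally, the ratio was 0.28 for Eif4ebp1, 0.44 for Nupr1 and 0.23 for Trib3. Atf4, Ddit3 and Ddit4 had stromal log2 ratios of -0.10, 0.03 and -0.01.

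Chac1 had a stromal log2 ratio of 0.30 (0.18 to 0.43), and 0.04 with the Fos classes weighted equally. In Fos-low cells it was 0.17 (0.04 to 0.30) and in Fos-high cells -1.09 (-1.64 to -0.56), the latter from 83 and 47 UMIs. Asns and Sesn2 had stromal log2 ratios of 0.23 (0.04 to 0.41) and 0.18 (-0.01 to 0.37). With the Fos classes weighted equally these were 0.06 and -0.03. In Fos-high cells alone they were -0.20 (-0.63 to 0.24) and -0.53 (-1.06 to -0.000982).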

How the data were processed

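The deposited matrices held UMI counts per gene and barcode, whole numbers with no normalization. Per the submitters' processing notes they were made with Cell Ranger 2.1.1 on mm10, while the annotation release is not given in the sources used here. Depth was as follows: the wild-type and Becn1 +/- libraries held 2513 and 5155 barcodes with 54913980 and 74363359 UMIs, and the shallowest barcode had 8089 and 5430 UMIs. Barcodes with the highest doublet scores (Scrublet in scanpy 1.11.5) were removed at 0.8% per 1000 barcodes, 51 and 213 in number. Counts were summed per library and cell group and scaled to CPM. Log2 ratios had 0.5 added to each count. Intervals are exact Poisson for levels, exact binomial for shares and exact conditional for ratios, all at 95%, and molecules, not animals, are what they count. With 1 library per genotype and cells that are not replicates, no test was made. A gene was called higher or lower at 1.5-fold in both libraries, or in the single ratio between the libraries, among genes that averaged 20 CPM or more over the groups compared.

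For shares, pairs and correlations each cell was thinned to 5000 UMIs, and correlations used the natural log of 1 + count per 10000. Pairs needed at least 5 expected cells. The script was tested on simulated data. Named were all 10 members, the 5 nearest genes of each and, of 9 gene lists, up to 4 genes past the limit in each direction with the largest mean log2 ratio; of these a selection is printed, and the eIF2alpha kinases, Klb and Kl were named outside the rule. The members and lists were chosen with earlier results of these data known. Positions are from GENCODE M21 (GRCm38), matched by Ensembl identifier for 10 of 10 members, and promoters from RefSeq (GRCm38.p6). Python 3.11.15, numpy 2.4.6, scipy 1.17.1, pandas 2.3.3 and matplotlib 3.10.9 were used. The alternatives changed the doublet removal, scaling, depth, limits of the cell groups, fold and gene filter.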

Additional observations from a re-analysis of the deposited data

Results flagged for a closer look

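The ratio between the library labelled Becn1 +/- and the library labelled wild type went opposite ways in different cell groups for 2 genes, with intervals on either side of 0. The difference between groups was not tested, since each genotype has 1 library. Chac1 had log2 ratios of 0.17 in Fos-low stromal and 0.28 in limbal cells and of -1.09 in Fos-high stromal cells. Ddit4 had log2 ratios of 0.23 in Fos-high stromal and -0.21 in corneal basal cells.

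Eif4ebp1 differed in sign between the libraries when stromal cells were set against corneal basal cells, with log2 ratios of -0.21 in the wild-type and 0.0694 in the Becn1 +/- library. This difference was not tested either.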

How the results depend on the processing

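No paired analysis was possible because each genotype had 1 library and the replicate numbers are only names. Of 980 log2 ratios of single members over 14 alternatives, 830 stayed within the counting interval of the reported value and 150 moved beyond it. Of the called ones 0 changed sign, and 30 uncalled ones did. The changed limits of Fos, Krt12 and Gpha2 cannot alter the ratios of contrasts that do not use them. Those ratios are counted among the 830, which therefore overstates how stable the values are. The 5 members higher in Fos-low cells and the 3 higher in stroma numbered the same in every alternative except the fold of 1.25, where 4 were higher in stroma than in each epithelial group. Members lower in Fos-low cells numbered 1 at a fold of 2. With cells of at least 9000 UMIs, 1 member was lower in stroma than in corneal basal cells, 1 lower than in limbal cells and 1 lower in the library labelled Becn1 +/- than in the wild type, against 0 each. That last count was also 1 with all deposited barcodes (Fgf21, log2 ratio -0.62). With median-ratio scaling, with Dcn at least 2000 CPM and with cells of 2 groups left out, 1 member (Trib3) was lower than in limbal cells. At a fold of 1.25, 1 member was lower than in corneal basal and 2 lower than in limbal cells, 3 were higher and 1 lower in the library labelled Becn1 +/-, and 6 pairs were detected together. Pairs numbered 0 at a fold of 2, without thinning, within Fos classes, and, chosen after seeing the data, in stromal cells with at least 500 CPM of Kera. The share of all genes 1.5-fold lower in Fos-low cells was 15.7% among genes of at least 5 CPM. The share higher in the library labelled Becn1 +/- was 2.52% with all deposited barcodes, 1.40% with genes of at least 5 CPM and 0.447% with Dcn at least 2000 CPM, and the share lower was 2.39%, 2.76% and 1.76% with cells of at least 9000 UMIs, with genes of at least 5 CPM and with thinned cells. The log2 ratio of Chac1 between Fos classes ranged from 2.09 to 3.32 and from 2.88 to 4.47, and that of Fgf21 between stroma and limbal cells from 7.11 to 11.34 and from 6.85 to 8.04, since few limbal UMIs stand behind it. The 30 sign changes include Atf4 between the Fos classes under median-ratio scaling. With cells of 2 groups left out the log2 ratio of Fgf21 between stromal and corneal basal cells was 8.54 and 8.46.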
